A study of Mus musculus with 6 samples.

Results

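Uhrf1 and Hells, together with Dnmt1, are the genes of maintenance DNA methylation described here, 3 of the 7340 genes in the deposited table. They were chosen by gene name after the difference between the groups in Uhrf1 and Hells was known, so their values are given as a description with no test.

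DNA methylation at CpG sites is lost by dilution unless it is copied at each round of replication. UHRF1 is a ubiquitin ligase that binds CpG sites methylated on the parental strand alone and recruits DNMT1, the methyltransferase that completes the other strand. HELLS, also called LSH, is a remodeller of the SNF2 family that works with CDCA7 to make DNA in nucleosomes accessible to this machinery. Tubular cells of the adult kidney divide rarely, and they enter the cell cycle after ischaemic injury.

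RNA was sequenced from kidneys of wild-type mice in 6 libraries. In 3 libraries, called IRI, the kidney had undergone ischaemia-reperfusion injury. The other 3 combined IRI with MK-8617 (written MK8617 in the sample titles), a small-molecule inhibitor of the HIF prolyl hydroxylases. Both groups carried the injury, no uninjured kidney was analysed here, and the column headers carry the tag 1d, while strain, age, dose and time are not given in the labels. For MK-8617 replicates 2 and 3 the treatment entry reads MK8618 and MK8619, and these libraries were grouped by title. Separate animals are not stated for the replicates, so the spread between libraries may be technical.

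Library depth was 16835541 to 19508497 reads. Every gene in the table had been selected at a p-value below 0.05 in the authors' own comparison (largest 0.0499), so a gene outside the table has no value here. Of 17 kidney tubule and podocyte markers 7 were listed, among them Slc12a1, Atp6v1g3, Slc4a1 and Nphs1, and none of the 7 was at 0 in any library. Levels below are reads divided by the authors' size factor for each library, called scaled reads. Differences are log2(scaled reads + 1) with MK-8617 minus IRI. RNA of whole tissue was measured, and fewer cells of a type and less RNA per cell cannot be told apart.

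Uhrf1 (ENSMUSG00000001228) lies on the plus strand of GRCm38 chromosome 17, 56303321 to 56323486. Hells (ENSMUSG00000025001) lies on the plus strand of chromosome 19, 38930915 to 38971051, and Dnmt1 (ENSMUSG00000004099) on the minus strand of chromosome 9, 20907209 to 20959888. No other annotated gene shared exon bases with any of the 3. RefSeq (GRCm38.p6) gave promoter windows for 3 of 3 genes, and these are shown because the genes were lower together. The 250 bases before one of the 2 Uhrf1 starts, chr17:56304063-56304312 on the plus strand, contain 1 match to an E2F element in capitals:

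Uhrf1 promoter: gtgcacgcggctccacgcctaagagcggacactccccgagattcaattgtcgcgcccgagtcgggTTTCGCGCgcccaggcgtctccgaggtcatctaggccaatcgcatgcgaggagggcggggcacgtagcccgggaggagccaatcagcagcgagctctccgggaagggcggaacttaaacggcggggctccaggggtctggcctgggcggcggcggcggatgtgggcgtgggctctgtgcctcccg

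The E2F elements searched on both strands were TTTCCCGC, TTTGGCGC, TTTGCCGC and TTTCGCGC, letters bound by E2F factors, the transcription factors of S-phase entry. They were chosen with these windows in view. The 30 bases around the match are given for the other 2 genes, on each gene's own strand, at chr19:38930917-38930946 (plus) for Hells and chr9:20952824-20952853 (minus) for Dnmt1:

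Hells element: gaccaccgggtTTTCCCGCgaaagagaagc

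Dnmt1 element: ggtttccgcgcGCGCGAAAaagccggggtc

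The Hells match lay 62 to 55 bases before its single RefSeq start, and the Dnmt1 match 219 to 212 bases before 1 of its 3 starts. Both stretches fall within exons of other transcripts in GENCODE. The capitals in Dnmt1 are the reverse complement of the last element. The other Uhrf1 start and the other 2 Dnmt1 starts had no match in their windows. In all, 2.16% of 27025 genes had such a match before at least 1 start. So had 4 of 25 replication fork genes, Dnmt1 among them, and 5 of 23 S-phase and mitosis markers. CCAAT boxes (CCAAT, both strands) were found before 37.5% of genes, with 2 in the printed Uhrf1 window and 0 in that of Hells. The Dnmt1 window that holds the E2F match also had CCAAT matches, the nearest 32 to 28 bases before the start. The core of the element bound by HIF (ACGTG or GCGTG, both strands) was found before 41.5% of genes, with 4 matches in the printed Uhrf1 window, 1 in the Dnmt1 window that holds the E2F match and 0 in that of Hells. The cell cycle homology region (TTTGAA, both strands), found before 18.3% of genes, had no match in these 3 windows. Which start was used in these kidneys cannot be read from gene counts.

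Uhrf1 stood at 1014 scaled reads in IRI replicate 1, at 2295 in replicate 2 and at 1211 in replicate 3, while the libraries with MK-8617 held 99.4, 105.7 and 108.5. IRI replicate 2 stood highest, the MK-8617 libraries lay close together, and the groups did not overlap. The mean was 1507 ± 690 with IRI and 104.5 ± 4.65 with MK-8617 (SD, n = 3 per group), 14.4-fold lower with the inhibitor. The log2 difference was -3.74 ± 0.26 (SE), or -3.39 without IRI replicate 2. In the MK-8617 libraries Uhrf1 rested on 97, 99 and 102 reads. Even the lowest IRI library was 9.35-fold above the highest MK-8617 library.

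Hells was the scarcer transcript of the pair. It had 322.7, 668.6 and 323 scaled reads with IRI and 31.8, 32 and 46.8 with MK-8617. Again IRI replicate 2 was the highest and the groups were apart, with 6.9-fold between the lowest IRI and the highest MK-8617 library. Its mean went from 438.1 ± 199.6 to 36.9 ± 8.6 (SD, n = 3 per group), 11.9-fold lower, with a log2 difference of -3.47 ± 0.31 (SE) and of -3.12 without IRI replicate 2. In the MK-8617 libraries Hells rested on 31, 30 and 44 reads, with exact Poisson 95% intervals of 21.1 to 44, 20.2 to 42.8 and 32 to 59.1 reads that cover counting error only. Those intervals overlap, so an order of Hells among the MK-8617 libraries was not detectable at this depth.

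Dnmt1, the enzyme that UHRF1 recruits, was lower by a much smaller amount. It had 1540, 1930 and 1540 scaled reads with IRI and 927.2, 876.2 and 1007 with MK-8617. The groups did not overlap, and the lowest IRI library was 1.53-fold above the highest MK-8617 library. The mean was 1670 ± 225 against 936.8 ± 65.9 (SD, n = 3 per group), 1.78-fold lower, with a log2 difference of -0.83 ± 0.12 (SE) and of -0.72 without IRI replicate 2. The authors' deposited table gives log2 fold changes of -3.85 for Uhrf1, -3.57 for Hells and -0.83 for Dnmt1. With MK-8617, 6.94% of the IRI mean of Uhrf1, 8.41% of Hells and 56.1% of Dnmt1 was left.

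**Figure D1:**
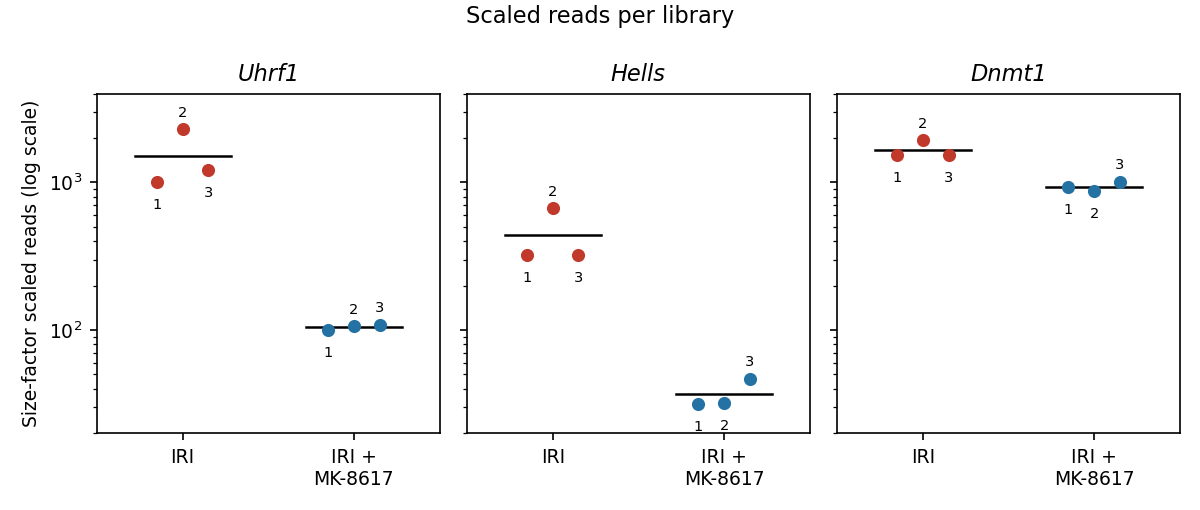
Size-factor scaled reads (log axis) of Uhrf1, Hells and Dnmt1 in each library, numbered by replicate, with the arithmetic mean of each group as a black line. Uhrf1 stands at 1014 to 2295 with IRI and 99.4 to 108.5 with MK-8617, and Dnmt1 at 1540 to 1930 and 876.2 to 1007.

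Among the 6961 genes tested in the whole table Uhrf1 held rank 38 and Hells rank 54 from the lowest difference, while Dnmt1 held rank 1688. The median difference of all tested genes was -0.31. Groups that did not overlap, with MK-8617 lower, were found in 47.6% of tested genes, so the separation of the groups by itself was common in this table. The ranks and the separation come from the contrast by which the genes were chosen.

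**Figure D2:**
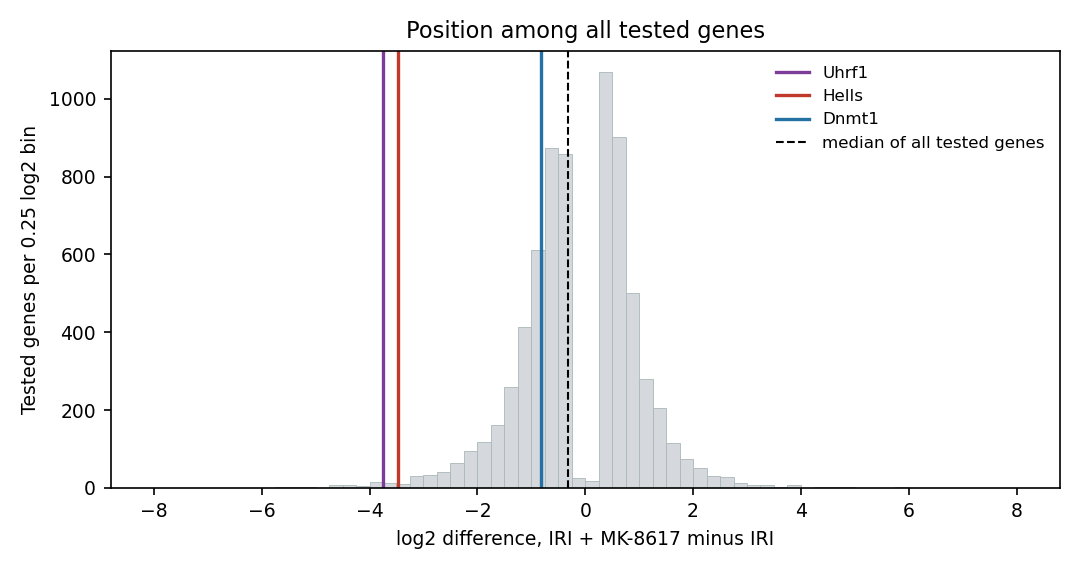
Number of tested genes in each 0.25-wide bin of the log2 difference (IRI with MK-8617 minus IRI), with vertical lines at Uhrf1, Hells, Dnmt1 and the median of all tested genes. Uhrf1 (-3.74) and Hells (-3.47) lie in the far lower tail and Dnmt1 (-0.83) lies within the main body, and the gap around 0 reflects the selection of listed genes on p.

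Per kilobase of transcript, the order of the 3 genes differed between the groups. With IRI, Uhrf1 was at 19.9 ± 9.12 FPKM (fragments normalised to exon length and library depth, SD, n = 3), Dnmt1 at 12.7 ± 1.72 and Hells at 3.42 ± 1.56. The lowest Uhrf1 library (13.4 FPKM) lay below the highest Dnmt1 library (14.7 FPKM), so these neighbours overlapped, while Hells (at most 5.22 FPKM) lay below both. With MK-8617, Dnmt1 was at 7.06 ± 0.53 FPKM, Uhrf1 at 1.36 ± 0.06 and Hells at 0.28 ± 0.07, and no ranges overlapped. Among the listed genes Uhrf1 stood at rank 1634 by mean FPKM with IRI and at rank 5677 with MK-8617.

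The ratio between members shows the same pattern within each library. Uhrf1 had 5.31, 5.81 and 6.34 times the FPKM of Hells with IRI and 5.29, 5.58 and 3.92 times with MK-8617, so the ratio of this pair overlapped between the groups. The ratio of Uhrf1 to Dnmt1 in FPKM was 1.14, 2.06 and 1.36 with IRI and 0.186, 0.209 and 0.187 with MK-8617. The ratio of Hells to Dnmt1 was 0.215, 0.355 and 0.215 against 0.0351, 0.0374 and 0.0476. Uhrf1 and Hells were thus lower relative to Dnmt1 in each MK-8617 library than in each IRI library.

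Spread between libraries differed as well. With IRI, the SD of Uhrf1 (690 scaled reads) was far above the 37.7 that counting error alone would give, and that of Hells was 199.6 against 20.4. With MK-8617, the SD of Uhrf1 was 4.65 against 10.5 from counting, and that of Hells 8.6 against 6.22. For both genes the spread went far past counting error in the IRI group, where replicate 2 stood apart. That library had 2.06-fold the mean of the other IRI libraries for Uhrf1, 2.07-fold for Hells and 1.25-fold for Dnmt1.

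Other proliferation genes were also highest in IRI replicate 2. The excess was 7.94-fold for Mki67, which encodes the proliferation marker Ki-67, 5.65-fold for Top2a, the mitotic DNA topoisomerase gene, and 2.18-fold for Mcm5, a subunit of the replicative helicase. In all, 26 of 26 tested S-phase and mitosis markers and 31 of 31 replication fork genes, Dnmt1 among them, had their highest level there. The number was 1875 of all 6961 tested genes. Most genes of both lists fell with MK-8617, and a gene that fell tends to peak in an IRI library. All tested genes include those that rose, so their share is not a like comparison. The ratio of Uhrf1 to Mki67 in scaled reads was 13.6, 3.01 and 10.4 with IRI and 6.06, 4.5 and 4.86 with MK-8617, so the groups overlapped in it. Against Mcm3, another helicase subunit, Uhrf1 was at 1.17, 1.44 and 1.46 with IRI and 0.724, 0.683 and 0.662 with MK-8617. Hells was at 0.372, 0.42 and 0.389 times Mcm3 with IRI and 0.231, 0.207 and 0.286 with MK-8617. Both were lower relative to Mcm3 with MK-8617, with no overlap, but not relative to Mcm5. Ratios to the other helicase subunits were not taken. Their log2 differences were -2.32 (Mcm2), -1.81 (Mcm4), -1.79 (Mcm6) and -1.09 (Mcm7), smaller falls than those of Mcm3 (-2.78) and Mcm5 (-3.51). Against Mcm5, Uhrf1 was at 1.12, 1.17 and 1.35 with IRI and 1.26, 1.11 and 0.779 with MK-8617, and Hells at 0.357, 0.34 and 0.36 against 0.403, 0.337 and 0.336, and the groups overlapped in both ratios.

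**Figure D3:**
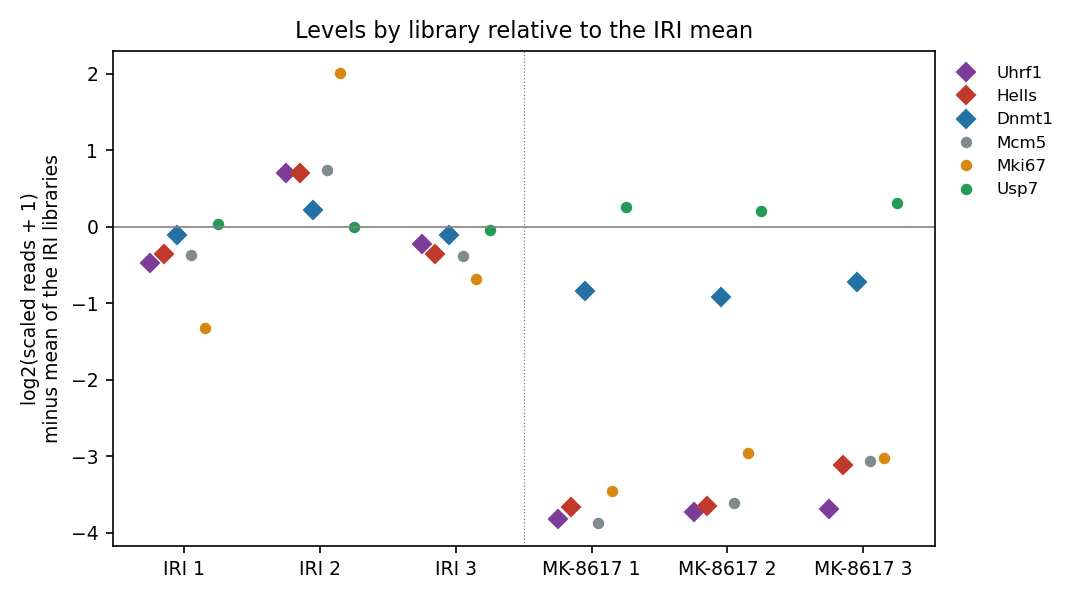
log2(scaled reads + 1) minus the mean of the IRI libraries, for each of the 6 libraries, with Uhrf1, Hells and Dnmt1 as diamonds and Mcm5, Mki67 and Usp7 as circles. Uhrf1, Hells and Mcm5 lie near each other, at -3.87 to -3.06 with MK-8617, Mki67 is spread widely among the IRI libraries, and Usp7 stays near 0 with IRI and at 0.21 to 0.32 with MK-8617.

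The profile of Hells over the 6 libraries was most like that of Mcm5 among the 6716 tested genes whose mean reached 1 CPM (a gene's reads scaled to library depth). Likeness was the root mean square difference of log2 values after each gene was centred on its own mean, and it was 0.09 between Hells and Mcm5. Uhrf1 was second (0.22), and the 8 nearest genes also held Ncaph, a condensin subunit gene (0.27), Pole, the catalytic subunit of DNA polymerase epsilon (0.27), Gm9115 (0.28), Brca1, of recombination repair (0.31), and Gm10335 (0.36). For Uhrf1 the nearest gene was Hells (0.22), then Mcm5 (0.25), and the 8 nearest also held Fignl1 (0.32), Gm3362 (0.34), Gm9115 (0.36), the replication licensing gene Cdc6 (0.36) and the ribosomal protein gene Rps28 (0.37). Dnmt1 stood at rank 1388 in likeness to Uhrf1. Without IRI replicate 2, Hells was at rank 6 from Uhrf1 and Uhrf1 at rank 4 from Hells, and Mcm5 was again at rank 1 from Hells. From Uhrf1, Mcm5 then went from rank 2 to 10, Fignl1 from 3 to 17 and Cdc6 from 7 to 24, while Rps28 went from 8 to 4. From Hells, Ncaph went from rank 3 to 14, Pole from 4 to 15 and Brca1 from 6 to 19. These profiles hold the difference between the groups, by which the members were chosen, so genes with a like difference rank near. Such genes include Mcm5 (-3.51), Gm9115 (-3.57) and Rps28 (-3.57), and the ranks give no separate support for a shared pattern. Reads of Rps28 and of the predicted genes may be shared with copies, so their counts are uncertain.

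The other genes of maintenance methylation were lower or did not pass the test. Besides Uhrf1, Hells and Dnmt1, 6 of the other 8 genes of the list were tested. Of these 4 fell and 0 rose at an adjusted p below 0.05 (limma, Benjamini-Hochberg), with a median of -1.4. Without IRI replicate 2 the number that fell was again 4 (median -1.23), but Pcna then passed and Cdca7l did not. Of all tested genes, 38.7% fell and 35.7% rose by this rule. That balance turned under other scalings, with 2345 genes lower and 2892 higher by edgeR with TMM, and 1947 lower and 2530 higher with the gene length trend removed, against 2691 and 2482. Cdca7, which encodes the partner of HELLS, fell from 262.1 ± 74.1 to 75.2 ± 18.6 scaled reads, a difference of -1.78 ± 0.26 (SE, adjusted p = 0.00161). Its relative Cdca7l fell from 46.2 ± 7.39 to 22.1 ± 3.1 (-1.03 ± 0.3), and its adjusted p went above 0.05 when IRI replicate 1 (-1.08) or 2 (-0.9) was left out, when any of the 3 MK-8617 libraries was left out (-1.13 to -0.94), with the replicate block (-1.03) and with the gene length trend removed (-0.88).

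Lig1 encodes the ligase that joins Okazaki fragments and carries a methylated site that UHRF1 binds. It fell from 810.4 ± 314.1 to 189.9 ± 16.9 scaled reads (-2.02 ± 0.24). Pclaf, a PCNA-associated factor that also brings DNMT1 to replicating DNA, had 93.7, 619.4 and 92 scaled reads with IRI and 4.1, 12.8 and 8.51 with MK-8617, a fall of 4.33 ± 0.72 on the log2 scale. Its call was lost on FPKM (-1.59), and 6.67-fold more Pclaf was seen in IRI replicate 2 than in the mean of the other IRI libraries.

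Pcna, the sliding clamp, had 2434 ± 996 scaled reads with IRI and 1425 ± 39.5 with MK-8617, a difference of -0.7 ± 0.23 that did not pass (adjusted p = 0.0524). It passed without IRI replicate 1 (-0.92) or IRI replicate 2 (-0.38), with the replicate block (-0.7), with no filter on low counts (-0.7) and with DESeq2 (-0.77). Usp7, which encodes a deubiquitinase that stabilises UHRF1 and DNMT1, had 2116 ± 57.5 against 2536 ± 94.6 (0.26 ± 0.09, adjusted p = 0.0582), and passed with edgeR (0.32) and DESeq2 (0.26) on recovered reads. Uhrf2, the paralogue of Uhrf1, and Zbtb24 have no row in the table and were not used here.

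**Figure D4:**
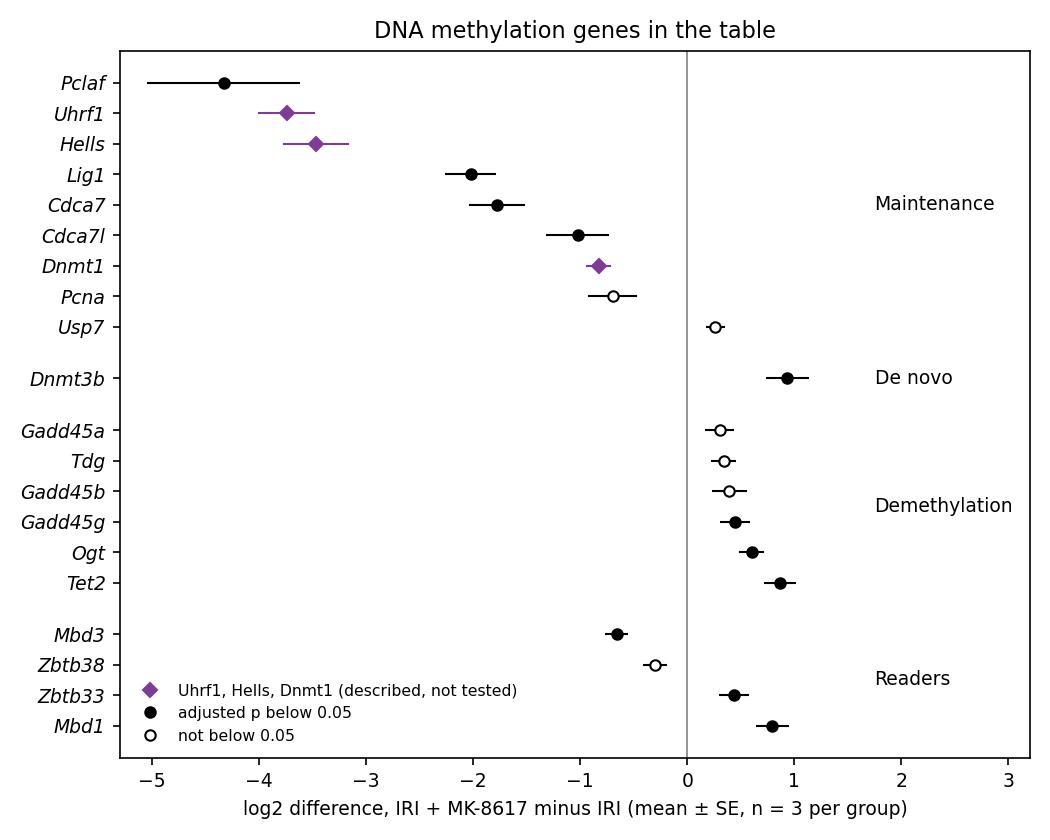
log2 difference (IRI with MK-8617 minus IRI, mean ± SE, n = 3 per group) of listed genes of DNA methylation, grouped by role. Of the 5 tested genes of the reader list, which includes relatives of readers, 4 are shown. Diamonds mark Uhrf1, Hells and Dnmt1, filled circles genes with an adjusted p below 0.05 and open circles the others. The maintenance genes other than Usp7 lie below 0, and Dnmt3b and all 6 listed demethylation genes lie above 0.

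The few listed genes that place or remove methylation and passed, 1 of de novo methylation and 3 of demethylation, were higher with MK-8617. Dnmt3b, a de novo methyltransferase, rose from 78.7 ± 11.5 to 150.5 ± 11.5 scaled reads (0.93 ± 0.2, adjusted p = 0.00886), and Dnmt3a and Dnmt3l were outside the table. Of 10 genes of demethylation 6 were listed and tested. Of these 3 rose and 0 fell, with a median of 0.42, while 35.7% of all tested genes rose. Tet2, a dioxygenase that oxidises methylcytosine, rose from 473.3 ± 39.7 to 873.2 ± 164.1 (0.87 ± 0.15). Ogt, the O-GlcNAc transferase that binds TET proteins, rose by 0.6 ± 0.11. Gadd45g rose by 0.45 ± 0.14, which did not hold when IRI replicate 2 (0.32) or any MK-8617 library (0.35 to 0.5) was left out, on FPKM (0.42) and among genes of at least 5 CPM (0.45). Gadd45a (0.3), Gadd45b (0.39) and the glycosylase gene Tdg (0.34) did not pass, although Gadd45a (0.57) and Gadd45b (0.7) did with the gene length trend removed, and Tdg did with edgeR (0.41), without IRI replicate 3 (0.39) or without MK-8617 replicate 2 (0.44). Gadd45a also passed without MK-8617 replicate 3 (0.43). Tet1 and Tet3 were outside the table. The median of the demethylation list was 0.4 without IRI replicate 2, and 2 members then rose. Also 2 rose without MK-8617 replicate 1, on FPKM and among genes of at least 5 CPM, so the count was near the share of all genes.

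Of 9 genes taken as readers of methylated CpG or their relatives 5 were in the table and tested, of which 3 rose and 1 fell. Without IRI replicate 2 it was 2 and 2. Mbd1 rose by 0.79 ± 0.15. Zbtb33, which encodes Kaiso, rose by 0.44 ± 0.14, which did not hold when any of the 6 libraries was left out (0.35 to 0.5), with the replicate block (0.44), on FPKM (0.31) or among genes of at least 5 CPM (0.44). Mbd3, of the NuRD complex and listed as a relative and not as a reader itself, fell by 0.66 ± 0.11. Zbtb38 was at -0.3 (adjusted p = 0.0839), passing without IRI replicate 2 (-0.39) and with the gene length trend removed (-0.43). The tested genes of this list lay between -0.66 (Mbd3) and 0.79 (Mbd1), against -3.74 for Uhrf1 and -3.47 for Hells.

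The remodeller family to which Hells belongs went both ways. Of 26 SNF2-family genes 15 were listed and tested, of which 8 rose and 4 fell, with a median of 0.5. The rises included Chd9 (1.66 ± 0.11), Btaf1 (0.77 ± 0.11), Ercc6 (0.68 ± 0.1) and Ep400 (0.5 ± 0.09). The 4 that fell, named after their values were seen, were Rad54l (-2.7) and Rad54b (-2.82) of recombination repair, the mitotic helicase gene Ercc6l (-1.9) and Smarca4 (-0.31). Of the family 2 fell when IRI replicate 2 or any MK-8617 library was left out, and 1 on FPKM. Among genes of at least 5 CPM 1 of 9 tested fell. Of 15 heterochromatin genes 5 were listed and tested. They were at a median of 0.3, with 3 higher, among them Kdm4b (0.75 ± 0.11), and Cbx1 lower (-0.57 ± 0.1). Only 1 of them rose when replicate 1 or 2 of either group was left out, and 2 fell without IRI replicate 3.

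Replication fork genes mostly fell. Without Dnmt1, 26 of 30 tested fell and 0 rose, with a median of -1.4, and without IRI replicate 2 the counts were the same (median -1.09). With Dnmt1 kept on the list of 31, the number was 22 to 26 when an MK-8617 library was left out. It was 23 with the gene length trend removed, against 27 in the main fit. Chaf1a, the large subunit of the chromatin assembly factor CAF-1, fell from 305.5 ± 94.4 to 36.1 ± 8.73 scaled reads (-3.03 ± 0.28), Pole fell by 3.06 ± 0.33 and Pold1, the catalytic subunit of polymerase delta, fell by 1.23 ± 0.15. Dnmt1, itself on the list of replication fork genes, was nearer to Pold1 than to Uhrf1. Of 26 tested S-phase and mitosis markers 22 fell and 0 rose (median -2.34), and without IRI replicate 2 it was 19 (median -1.68). It was 16 when any of the 3 MK-8617 libraries was left out. Mcm5 fell from 1256 ± 615 to 104.4 ± 31.3 (-3.51 ± 0.32), and Mki67 fell by 3.14 ± 0.72, although not past the threshold when replicate 1 (-2.99) or 3 (-3.2) of MK-8617 was left out, or on FPKM (-1.05). Top2a fell by 3.99 ± 0.61, a call lost on FPKM (-1.38).

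Of 21 E2F and RB family genes 15 were listed and tested, of which 8 fell and 0 rose, with a median of -1.11. Without IRI replicate 2, 6 fell, with a median of -0.62. E2f1 had 259.3, 656.7 and 299.1 scaled reads with IRI and 67.6, 57.6 and 45.7 with MK-8617, a difference of -2.7 ± 0.34. E2f2 fell by 3.22 ± 0.45, the cyclin E gene Ccne1 fell by 3.11 ± 0.52 and Rbl1, which encodes p107, fell by 1.47 ± 0.27. The number that fell was 5 without MK-8617 replicate 2 and also without MK-8617 replicate 3, and 1 gene rose without IRI replicate 3 or with edgeR.

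Methyl donor and folate genes were mixed. Of 17 such genes 8 were listed and tested, with 4 lower and 1 higher (median -0.43, or -0.23 and 3 lower without IRI replicate 2). Without IRI replicate 3, 2 of them were higher, and without MK-8617 replicate 2 it was 0. Tyms, thymidylate synthase, fell by 1.61 ± 0.28, Mthfd2 by 0.82 ± 0.12 and Shmt1 by 0.82 ± 0.18, and Shmt2 rose by 0.8 ± 0.19, a call lost without MK-8617 replicate 2 (0.69). Some transcripts are known to be silenced by promoter methylation. Of 17 germline genes of that kind 1 was listed, Sycp3, at 0.67 ± 0.28 (adjusted p = 0.117), which passed with the gene length trend removed (1.06). Of 27 imprinted genes 11 were listed and 10 tested, of which 6 rose and 2 fell. The number that rose was 4 when replicate 1 or 3 of MK-8617 was left out, and 8 without IRI replicate 3. Among genes of at least 5 CPM 4 of 7 tested rose. In the main fit 35.7% of all tested genes rose. Peg10 rose from 10.7 ± 4.74 to 58.7 ± 14.9 scaled reads (2.4 ± 0.4) and Impact by 0.73 ± 0.15, while Ndn fell by 1.52 ± 0.27 and Phlda2 by 0.85 ± 0.14. The call of Phlda2 was lost with the gene length trend removed (-0.42). DNA methylation itself was not analysed here.

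Most macrophage, fibroblast and pericyte markers were lower with MK-8617, as were Uhrf1 and Hells. Kidney, neutrophil and endothelial markers went both ways. Of 12 tested macrophage and monocyte markers 10 were lower and 0 higher (8 lower without IRI replicate 2, and 6 of 8 tested among genes of at least 5 CPM). Their summed level was 168 to 344 CPM with IRI, highest in replicate 2, and 68.9 to 93.4 with MK-8617. Fibroblast and pericyte markers were lower in 5 and higher in 1 of 6 tested, and 0 were higher when replicate 1 or 3 of MK-8617 was left out. Their sums were 1011 to 1810 CPM with IRI and 320.5 to 397.8 with MK-8617. The sum was highest in IRI replicate 2, but only 3 of the 6 genes were, and Acta2 was lowest among the IRI libraries there. Lyz2, a macrophage lysozyme gene, fell by 3.02 ± 0.41 and the collagen gene Col1a1 fell by 2.17 ± 0.22. No listed marker of these types was at 0 in any library. Of neutrophil markers 3 of 10 were listed, with S100a8 and S100a9 lower and Ngp higher, and Ngp had 0 reads in IRI replicate 2. The number lower was 0 when MK-8617 replicate 1 or 3 was left out or the gene length trend was removed, and 1 when IRI replicate 1 or 2 was left out, on FPKM and with edgeR. Of 7 tested kidney markers 3 were lower and 1 higher, and the number higher ranged from 0 (without MK-8617 replicate 1) to 3 (DESeq2), with 2 without IRI replicate 2. Endothelial markers were listed in 2 of 10 cases (1 higher, and 1 also lower without MK-8617 replicate 3), erythroid markers in 1 of 8 (Slc4a1, also one of the kidney markers that were lower, which did not pass at -1.48 when replicate 3 of MK-8617 was left out) and T, B and NK cell markers in 0 of 14. The part of these cell types in the lower Uhrf1 and Hells was not tested.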

How the data were processed

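RNA of 6 mouse kidney samples (the series' design text speaks of tumors) was grouped by sample title. The submitters' processing notes name HISAT2 (2.0.5), featureCounts (1.5.0-p3), DESeq2 (1.20.0), CASAVA (1.8) and fastp. They also name a human build, whereas the identifiers are mouse, and 7338 of 7340 matched GENCODE M21 (GRCm38). The main signal column of each library, as deposited by the authors, holds reads per gene scaled by a library size factor. Whole reads were recovered for 100% of values (tolerance 0.001). A raw read count was deposited for IRI replicate 3 alone and equalled the recovered reads in 7340 genes. FPKM, log2 fold changes, p-values and group means are the authors' deposited values. Depth came from FPKM and exon lengths, which gave 1 library total within 0.1% for at least 95.1% of genes.

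Differences were fitted with limma 3.58.1 (R 4.3.3, trend and robust) on log2(scaled reads + 1), a scale that understates changes of low genes, for 6961 genes kept by filterByExpr of edgeR 4.0.16. Adjustment (Benjamini-Hochberg, threshold 0.05) ran over 18811 genes, the number implied by the deposited adjusted p-values. The fit was tested on simulated data. Alternatives included edgeR and DESeq2 1.42.0 on recovered reads. The members and all 19 gene lists were chosen with earlier results of these data known. Named genes were every tested gene of the maintenance, de novo, demethylation and reader lists, up to 4 of each other list by smallest adjusted p, Mki67, Top2a, E2f1 and the 8 nearest profiles. Not every gene that rule takes is described, and some are not reported here.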

Additional observations from a re-analysis of the deposited data

How the results depend on the processing

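The difference of Uhrf1 stayed between -3.98 and -3.39, that of Hells between -3.65 and -3.12 and that of Dnmt1 between -0.88 and -0.72 when any 1 library was left out, and 0 named genes changed direction under 16 alternatives. On log2(FPKM + 1) Uhrf1 was at -3.06 and Hells at -1.73, where the added 1 is close to the MK-8617 level of Uhrf1 and above that of Hells, and 12 S-phase and mitosis markers fell. The E2F and RB count was 5 to 10 without 1 library. Demethylation genes rose in 5 cases with the gene length trend removed and in 5 with adjustment over the tested listed genes alone. Removing that trend moved the median of all genes by 0.2. Genes past the threshold numbered 5173, and 3464 to 5195 without 1 library. Replicate numbers did not mark a stated pair. Same-numbered libraries deviated with r of 0.021, 0.116 and 0.115, the highest r of each of the 6 libraries. For IRI replicate 1 this was barely above its r of 0.02 with MK-8617 replicate 2. Values this small cannot settle whether the libraries were paired. With the replicate block, 5257 genes passed, and Uhrf1 was at -3.74, Hells at -3.47 and Dnmt1 at -0.83. Some named calls were lost in the settings given beside them. Among the 3 members Hells had the fewest reads, 30 to 44 with MK-8617, and Pclaf had 4 to 12.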
